A study of Mus musculus with 6 samples.

Results

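The V2b-gated cells are embryoid body cells that carried RNA of at least 2 of the transcription factors Gata2, Gata3 and Tal1 together with the neuronal tubulin Tubb3. A cell was a member when it held 1000 or more detected genes, at most 10% mitochondrial UMIs (molecular tags, so that each UMI stands for 1 RNA molecule), 1 or more UMIs of 2 of the 3 factors, 1 or more UMIs of Tubb3, and 0 UMIs of the motor neuron factors Isl1 and Mnx1. The rule found 127 members among 16225 kept cells, out of 24215 barcodes in 6 libraries. The members were thus chosen by measured UMIs of 6 genes, whose levels are descriptions of the gate, and Gad2 and Slc32a1, which were named together with the cells, are described without weight on their p-values.

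V2b interneurons are ventral spinal cord neurons that arise with the excitatory V2a interneurons from a shared p2 progenitor domain, where Notch signalling and the Gata2, Gata3 and Tal1 complex favour the V2b fate. They are inhibitory, releasing GABA, glycine or both, and in the mouse they act together with V1 interneurons in the alternation of flexor and extensor muscles. Gata2, Gata3 and Tal1 are also used by blood and endothelial precursors, by serotonergic neurons, by neurons that contact the cerebrospinal fluid and by midbrain GABAergic neurons.

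The study differentiated the HB9::GFP line of mouse embryonic stem cells, in which motor neurons turn on a green reporter, into embryoid bodies and profiled them at day 6 by 10x droplet RNA sequencing. WT libraries came from unedited cells. DeltaSP libraries carry the genotype label lncMN2_SP-/- and KO libraries lncMN2-/-, both made with CRISPR/Cas9 in the locus of the long non-coding RNA lncMN2, annotated as 5330434G04Rik on chromosome X (mm10, 105348282 to 105391776, minus strand). Each genotype was represented by 2 clones with 1 library each, so differences between clones and between library preparations cannot be told apart.

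WT 1 was the shallow library. Its kept cells had a median depth of 4157 UMIs, whereas the medians of the other 5 lay between 11898.5 and 15112. The V2b-gated cells held 1314187 UMIs in all, between 76426 and 382206 per library, with a median of 9077 per cell and a range from 1882 to 66472. Among the members, 5 exceeded 2 times the median of their library, and none of the 127 shared a barcode with a kept cell of another library. Single cells of these 5 held 14110 of the 91779 UMIs of WT 1, 28316 of 148684 in KO 1 and 66472 of 382206 in KO 2. The other 2 held 27053 and 29974 of 352529 in DeltaSP 2. The KO 1 cell had 2 UMIs of Tubb3 and 0 of the pan-neuronal gene Stmn2. The KO 2 cell had 24 UMIs of Olig2 and 11 of Sox2, both progenitor genes, beside 76 of Tubb3 and 21 of Stmn2. The comparison sets were 3494 motor neuron-gated cells (Tubb3, Isl1 and Mnx1 detected), 105 V1-gated cells (Tubb3 and En1 detected, Isl1 and Mnx1 at 0) and 4930 other Tubb3-positive cells, in which Isl1, Mnx1, Gata2, Gata3 and Tal1 were all at 0.

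Promoter sequences are shown for the genes that carry the inhibitory transmitter identity of these cells, Slc32a1 (the vesicular transporter of GABA and glycine), Slc6a5 (the neuronal glycine transporter GlyT2) and Gad2 (the GABA-synthesising enzyme GAD65). Each window is the 300 bases around the annotated start in RefSeq (GRCm38.p6), on the plus strand in all 3 cases, and capitals mark matches to the GATA motif, searched on both strands as the hexamers AGATAA or AGATAG, and also as TGATAA or TGATAG.
Slc32a1, chr2:158610508-158610807: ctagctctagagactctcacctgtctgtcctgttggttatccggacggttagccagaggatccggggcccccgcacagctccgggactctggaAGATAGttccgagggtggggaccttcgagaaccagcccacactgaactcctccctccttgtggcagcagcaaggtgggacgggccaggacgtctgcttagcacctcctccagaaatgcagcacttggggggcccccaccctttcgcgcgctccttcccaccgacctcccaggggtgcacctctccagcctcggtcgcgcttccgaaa
Slc6a5, chr7:49910049-49910348: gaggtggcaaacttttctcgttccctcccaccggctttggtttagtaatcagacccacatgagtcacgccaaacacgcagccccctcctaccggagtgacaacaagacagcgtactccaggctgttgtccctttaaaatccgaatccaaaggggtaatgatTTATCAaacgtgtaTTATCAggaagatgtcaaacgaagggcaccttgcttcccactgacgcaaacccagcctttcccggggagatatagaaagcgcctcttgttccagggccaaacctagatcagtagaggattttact
Gad2, chr2:22622077-22622376: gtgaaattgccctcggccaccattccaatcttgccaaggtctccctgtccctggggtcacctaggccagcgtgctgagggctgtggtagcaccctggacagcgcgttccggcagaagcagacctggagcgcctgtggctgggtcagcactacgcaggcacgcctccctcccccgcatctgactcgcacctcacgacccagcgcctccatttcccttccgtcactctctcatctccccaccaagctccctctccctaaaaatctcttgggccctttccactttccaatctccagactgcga
The Slc32a1 window held 1 match and the first Slc6a5 window 2, both of them on the opposite strand, while the Gad2 window held 0. The window of a second annotated Slc6a5 start (chr7:49911450-49911749, not shown) held 0 as well. Of all 32851 promoter windows, 29.8% held a match, so the motif is a common one, and these matches are descriptions of the letters only.

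The gated cells were rare in every library and formed a larger share of the edited libraries than of WT. The gate took 21 of 4499 kept cells in WT 1 (0.467%, exact binomial 95% interval 0.289 to 0.713) and 5 of 1612 in WT 2 (0.310%, 0.101 to 0.722). It took 23 of 2283 in DeltaSP 1 (1.01%), 35 of 3602 in DeltaSP 2 (0.972%), 14 of 2129 in KO 1 (0.658%) and 29 of 2100 in KO 2 (1.38%). All 4 edited libraries lay above both WT libraries, and KO 2 was the highest of the 6. Averaged over libraries, WT had 0.388% ± 0.111, DeltaSP 0.990% ± 0.025 and KO 1.02% ± 0.512 (SD, n = 2 each). KO exceeded WT by 0.631 percentage points, a ratio of 2.62, and DeltaSP exceeded WT by 0.601 points, a ratio of 2.55. In the exact permutation test (two-sided) both differences had p = 0.333, the smallest value that 2 against 2 libraries allow, so neither difference could pass 0.05. KO and DeltaSP differed by 0.030 points (exact permutation p = 1).

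**Figure D1:**
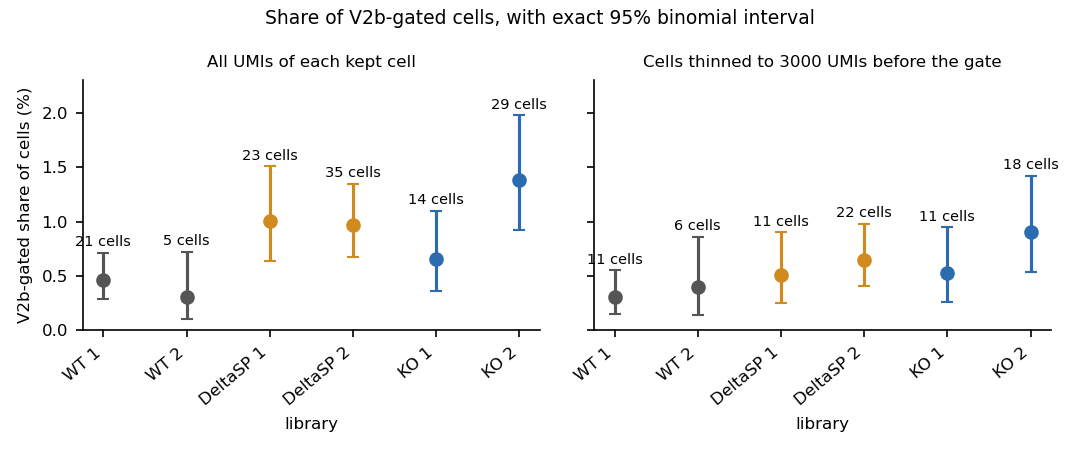
Share of V2b-gated cells among kept cells (%, vertical axis) in each of the 6 libraries, with all UMIs (left) and with every cell thinned to 3000 UMIs before the gate (right). Points are library values, bars are exact 95% binomial intervals and labels give the number of gated cells. The 4 edited libraries lie above both WT libraries in either panel, by less after thinning. Thinning can also let in cells whose Isl1 or Mnx1 UMIs were removed.

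Detection of 2 low-abundance factors in 1 cell depends on depth, and WT 1 was shallow. After every cell was thinned to 3000 UMIs and shallower cells were left out (936 in WT 1 and 56 to 201 elsewhere), the shares were 0.309% and 0.397% in WT, 0.505% and 0.647% in DeltaSP, and 0.531% and 0.901% in KO. The libraries still did not overlap between WT and either edit, with ratios of 2.03 for KO and 1.63 for DeltaSP. Requiring all 3 factors, without thinning, gave ratios of 3.52 and 3.15. The shares were then 0.067% (3 cells) in WT 1 and 0.310% in WT 2. They were 0.745% and 0.444% in DeltaSP, and 0.470% and 0.857% in KO. This rule depends on depth as well, and the low value of the shallow WT 1 enters both ratios. Among Tubb3-positive cells without Isl1 and Mnx1, WT stood at 1.19% ± 0.443, DeltaSP at 3.0% ± 0.097 and KO at 3.28% ± 1.48 (SD, n = 2). V1-gated cells did not follow the same order, with 1.04% and 0.372% of kept cells in WT, 0.745% and 0.278% in DeltaSP and 0.611% and 0.571% in KO. For each V1-gated cell there were 0.447 and 0.833 V2b-gated cells in WT, 1.35 and 3.5 in DeltaSP and 1.08 and 2.42 in KO. Cells kept out of the gate only by Isl1 or Mnx1 UMIs were also more frequent in both edits. Not thinned, they made up 0.156% and 0.124% of kept cells in WT (7 and 2 cells). Their shares were 0.394% and 0.278% in DeltaSP, and 0.329% and 0.19% in KO. With 1 or more factors, a rule that includes the members, ratios were 1.69 for KO and 1.63 for DeltaSP. A larger share in the edits was thus not particular to the V2b-gated cells.

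Within the gate, 69 cells held all 3 factors, 21 held Gata2 and Gata3, 19 held Gata2 and Tal1, and 18 held Gata3 and Tal1. Just outside the gate lay 142 cells with a single factor, Gata2 in 76, Gata3 in 45 and Tal1 in 21. Slc32a1 was detected in 82.6% of cells with 3 factors, 56.9% of those with 2 and 15.5% of those with 1. Gad2 fell along the same steps from 68.1% to 51.7% and 12.7%, and Slc6a5 from 56.5% to 29.3% and 4.23%. The LIM homeobox factor Lhx5 went from 72.5% to 50% and 13.4%, and Zfpm1 (FOG1, a cofactor of GATA proteins) from 58.0% to 27.6% and 20.4%. Genes of dividing precursors ran the other way. The proliferation marker Mki67 was found in 4.35%, 13.8% and 38.7% of cells, the progenitor factor Sox2 in 13.0%, 25.9% and 35.9%, and the proneural factor Neurog2 in 11.6%, 22.4% and 32.4%. Median depth was 9606 UMIs with 3 factors and 7981.5 with 2. The groups also differed in library mix: WT 1, the shallow library, gave 3 of the 69 cells with 3 factors and 46 of the 142 with 1. The shares are not thinned, and the part of depth and library in these steps was not tested. Since the grouping follows the rule, these shares are given with no test.

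**Figure D2:**
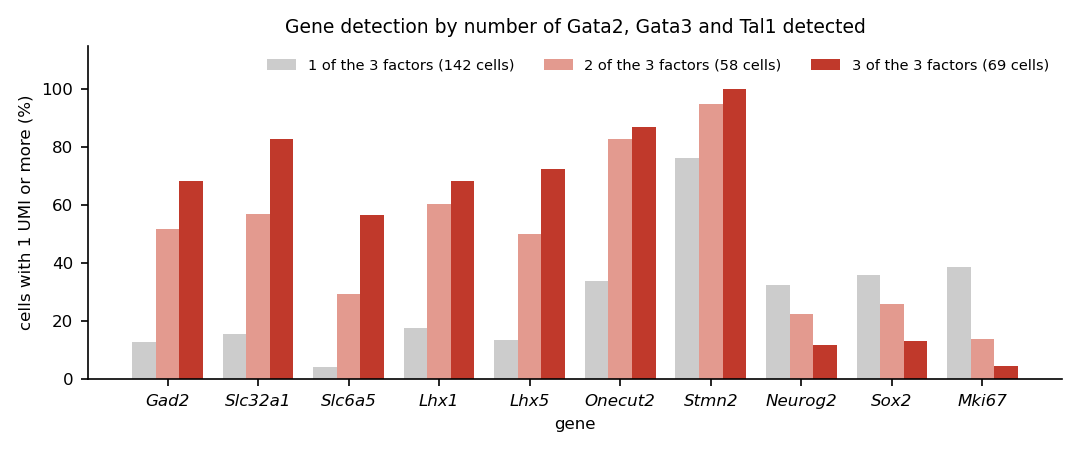
Share of cells with 1 or more UMIs (%, vertical axis) for 10 genes (horizontal axis) in cells with 1, 2 or 3 of Gata2, Gata3 and Tal1, pooled over 6 libraries. Cells are not thinned, and library mix differed between the groups. Slc32a1 went from 15.5% over 56.9% to 82.6% as factors were added, and Mki67 from 38.7% over 13.8% to 4.35%; bars are pooled shares with no error drawn.

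Most members carried the inhibitory transmitter genes. Slc32a1 was detected in 90 of 127 cells (70.9%) against 0.544% of motor neuron-gated cells, which use acetylcholine and serve as the background of free RNA. By library, cells with Slc32a1 numbered 8 of 21 and 4 of 5 (WT), 15 of 23 and 31 of 35 (DeltaSP), and 12 of 14 and 20 of 29 (KO). Gad2 was detected in 77 cells (60.6%) against 0.601% of motor neuron-gated cells, with 9 and 5 such cells (WT), 14 and 26 (DeltaSP), and 9 and 14 (KO). Slc6a5 was detected in 56 cells (44.1%) against 0.401%. Gad1, which encodes the GAD67 enzyme, was sparser, with 25 cells (19.7%) against 0.2%. Median depths by library were 3599 to 15219 UMIs in V2b-gated cells and 4703 to 19933 in motor neuron-gated cells. After thinning of every cell to 3000 UMIs, which kept 119 members, the shares were 44.5% for Slc32a1, 33.6% for Gad2, 26.1% for Slc6a5 and 10.9% for Gad1.

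Both GABA and glycine genes were found in the same cells. Gad2 and Slc32a1 were detected together in 70 members, and Gad2, Slc32a1 and Slc6a5 all together in 43. At least 1 of Gad1, Gad2, Slc32a1 and Slc6a5 was present in 99 of 127 members, by library in 12 of 21 and 5 of 5 (WT), 18 of 23 and 32 of 35 (DeltaSP), and 12 of 14 and 20 of 29 (KO). The remaining 28 members differed from the 99 in other genes. Lhx5 was detected in 3.57% of them against 78.8%, Lhx1 in 21.4% against 76.8%, and Neurog2 in 39.3% against 10.1%. Their median depth was 6707 UMIs against 9386, and 9 of the 28 came from WT 1. The part of depth in this split was not tested.

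Other transcription factors of inhibitory interneurons were common. Lhx1, a LIM homeobox factor of V2b, V1 and other ventral interneurons, was detected in 82 members (64.6%) and Lhx5 in 79 (62.2%). Sox1, which is kept on in V2c neurons of the same lineage in the mouse, was found in 77 (60.6%) against 8.57% of V1-gated cells. Zfpm1 was found in 56 members (44.1%) against 4.76% of V1-gated cells, and its relative Zfpm2 in 33 (26.0%). These shares are pooled and not thinned. WT 1, the shallow library, gave 47 of the 105 V1-gated cells and 21 of the 127 members. The early-born neuron factor Onecut2 was found in 108 members (85.0%), and the pan-neuronal gene Stmn2 in 124.

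**Figure D3:**
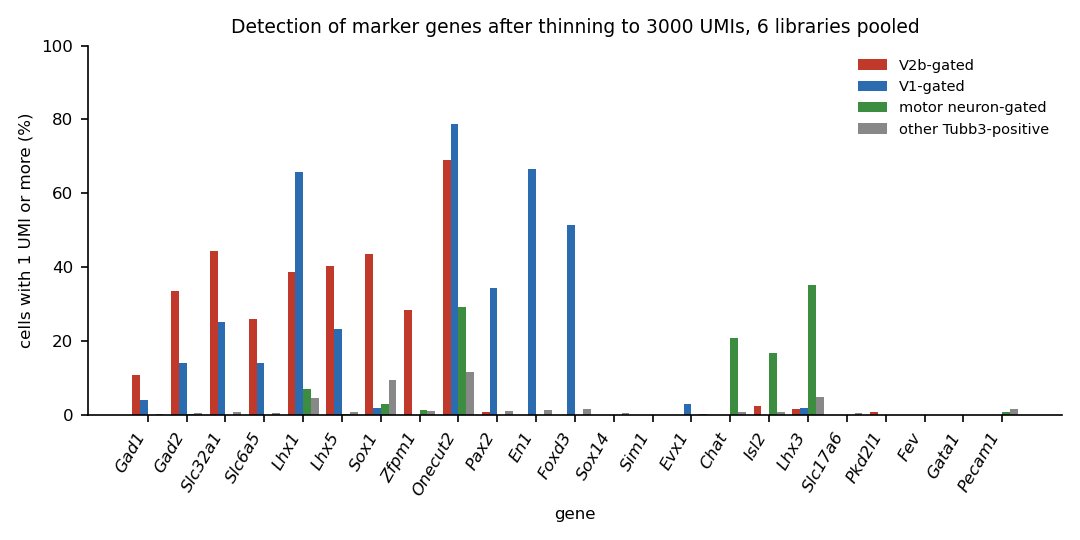
Share of cells with 1 or more UMIs (%, vertical axis) for marker genes (horizontal axis) after thinning every cell to 3000 UMIs, in V2b-gated, V1-gated, motor neuron-gated and other Tubb3-positive cells, 6 libraries pooled and no error drawn. Slc32a1 stood at 44.5% in V2b-gated cells and 25.3% in V1-gated cells; En1, Foxd3, Chat and Gata1 were at 0 in V2b-gated cells.

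Markers of other cells that use the same factors were read next, as list sums per library. Of 15 blood genes outside the gate, 12 were at 0 in all members, among them Gata1 and Runx1, and the summed level ran from 0 to 13.1 CPM (UMIs of a gene or list per 1000000 UMIs of the summed cells) over the libraries. Of 9 endothelial genes, 6 were at 0, including Pecam1 and Kdr, and the sum ran from 13.1 to 47.1 CPM, against 12.6 to 19.2 CPM in motor neuron-gated cells and 23.4 to 41.5 CPM in other Tubb3-positive cells. The serotonergic genes Fev, Tph2, Slc6a4 and Lmx1b were at 0, and the list of 8 summed to 32.7 to 73.3 CPM, against 56.1 to 159 CPM in motor neuron-gated cells. Pkd2l1, the channel that marks cerebrospinal fluid-contacting neurons, was found in 1 member, and that list of 5 genes summed to 0 to 32.7 CPM. In motor neuron-gated cells the same list summed to 198 to 710 CPM. Most of that was Sst, with a mean of 461 CPM there in the fit over 5 libraries, so it is no background for the rest of the list. The midbrain genes Otx2 and Helt were at 0, Tal2 was found in 4 members and Six3 in 8, with 10.5 to 65.4 CPM for the list of 7. That sum lay above the 2.97 to 9.22 CPM of motor neuron-gated cells, the 0 to 8.17 CPM of V1-gated cells and the 1.44 to 8.48 CPM of other Tubb3-positive cells. Its part in the results was not tested.

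Markers of neighbouring ventral neurons differed from list to list. En1, the V1 factor, was found in 0 of 127 cells, which allows a share of up to 2.36% of cells with a UMI at this depth and sets no limit on cells that express it. The same held for Slc17a6 (a vesicular glutamate transporter), Chat, Evx1 and Sim1. The V1 list of 6 genes, with En1 and Foxd3 at 0, still summed to 109 to 457 CPM, against 50.4 to 175 CPM in motor neuron-gated cells and 610 to 1602 CPM in V1-gated cells. The V2a list of 5 genes summed to 39.3 to 136 CPM, above the 13.6 to 19.5 CPM of motor neuron-gated and the 4.68 to 33.6 CPM of V1-gated cells, with 133 to 174 CPM in other Tubb3-positive cells. The V3 list of 4 genes, with Sim1 at 0, ran from 0 to 102 CPM, highest in KO 2, and the 4 V0 genes were at 0. The V2 factor Sox14 was found in 4 members and the V2a gene Shox2 in 9. The motor neuron factor Lhx3, which V2a cells share, was found in 7 members, and Slc18a3 (the vesicular acetylcholine transporter) in 11. Surface epithelium genes stood at 0 CPM in both WT libraries and in DeltaSP 1, at 5.67 CPM in DeltaSP 2, at 330 CPM in KO 1 and at 23.5 CPM in KO 2. Krt8 and Krt18 were each found in 4 members. The mesoderm list moved with them, at 0 CPM in both WT libraries and in DeltaSP 1, 22.7 CPM in DeltaSP 2, 108 CPM in KO 1 and 5.23 CPM in KO 2. Of the 3 members with 0 UMIs of Stmn2, 2 were in KO 1, with 1 and 2 UMIs of Tubb3. The V2b label was matched by the transmitter and factor genes above in most members, and 28 members carried none of the 4 transmitter genes.

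Against motor neuron-gated cells of the same libraries, the V2b-gated cells were higher in inhibitory transmitter genes and Hox genes, and lower in 3 of the 4 tested cholinergic genes. UMIs were summed per library and cell set over the 5 libraries with 10 or more cells in both sets, which leaves out WT 2, and tested with edgeR's quasi-likelihood test with library as a block and Benjamini-Hochberg adjustment at 0.05. Of 10107 genes tested, 747 (7.39%) were higher and 739 (7.31%) lower in V2b-gated cells, and the median log2 fold change of all genes was -0.02.

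Of 8 GABA and glycine genes, 6 were tested and 6 passed as higher; Gad1 and Slc6a9 did not reach the count filter. Slc32a1 stood at 109 CPM in WT 1, 202 and 255 CPM in DeltaSP and 323 and 254 CPM in KO, against 0.344 to 1.61 CPM in motor neuron-gated cells. Gad2 stood at 240, 118, 201, 303 and 123 CPM in the same libraries, against 0 to 1.05 CPM. The sets did not overlap for either gene. Their log2 fold changes were 8.19 ± 0.28 and 8.36 ± 0.38 (SE), the latter 9.15 without DeltaSP 1. Slc6a5 was higher by 7.30 ± 0.42, and by 7.99 without KO 2. The GABA-degrading enzyme Abat (1.10) and the chloride exporter Slc12a5 (1.24) passed more narrowly. The call of Abat was lost without KO 1, and that of Slc12a5 without DeltaSP 1 or DeltaSP 2. Thinning to 3000 UMIs ended both calls, with Abat at 0.51 and Slc12a5 at 1.64.

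The largest rises outside the transmitter genes included the homeobox genes Nkx1-2, Nkx1-1, Msx1 and Lhx5 and the zinc finger gene Insm2. Nkx1-2 stood at 87.2, 103, 190, 208 and 154 CPM in the 5 libraries, against 0 to 0.713 CPM in motor neuron-gated cells, a log2 fold change of 8.75 ± 0.37. Nkx1-1 stood at 32.7 CPM in WT 1 and at 349 to 463 CPM in the other 4, against 0.124 to 1.49 CPM, a log2 fold change of 8.71 ± 0.26. WT 1 was the low library for Nkx1-1, but its value still exceeded every motor neuron value. Lhx5 rose by 7.81 ± 0.28 and Lhx1 by 2.88. Insm2 rose by 8.18 (8.87 without KO 1) and Msx1, a homeobox gene of the dorsal neural tube, by 7.86 (7.17 without DeltaSP 1 and 8.64 without KO 2). The GATA cofactors Zfpm1 and Zfpm2 rose by 4.27 and 4.75, and Sox1 by 4.64. Pnoc, the precursor of the neuropeptide nociceptin, rose by 6.05, the zinc transporter gene Slc30a3 by 7.77, Lamp5 by 6.71 and the RNase P subunit gene Rpp25 by 6.87.

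Motor neuron genes ran the other way, as far as they were not part of the gates. Chat, the acetylcholine-synthesising enzyme, was at 0 in all V2b-gated cells and at 71.2 to 81.6 CPM in motor neuron-gated cells, at least 31.4-fold lower when 3 UMIs over the pooled libraries are taken as the floor. Ecel1, an endopeptidase gene, was also at 0 and at least 42.0-fold lower. The log2 fold changes were -5.54 for Slc18a3 and for Slc10a4, -5.07 for Lhx3 and -4.49 for Isl2. Lhx4 stood at a log2 fold change of -6.30, with -7.47 without DeltaSP 2 and -5.58 without KO 2. The neuropeptide gene Sst stood at -6.45, and at -7.32 without WT 1. Of 8 tested motor neuron genes 6 passed as lower and none as higher, with a median log2 fold change of -4.78, or -4.73 with Chat at its bound.

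Of the lists of patterning genes, the Hox genes moved together. Of 12 tested genes of paralogue groups 1 to 5, 11 were higher (median 1.02), and of 6 tested genes of groups 6 to 10 all 6 were (median 2.29), against 7.39% of all genes. Hoxb6 stood at 643, 1131, 882, 1264 and 615 CPM, against 205, 157, 70.0, 123 and 57.1 CPM in the motor neuron-gated cells, a log2 fold change of 3.0. Hoxb5 rose by 2.02. Hoxc6 rose by 2.29, a call lost without DeltaSP 1 (1.48) or DeltaSP 2 (2.04). Hoxb9 rose by 3.96, and by 2.75 without DeltaSP 1, and was at 0 in KO 2. The V2 lineage list was split, with 6 of 15 tested genes higher and 6 lower. Its higher members included Pax6 (1.87) and Bhlhe22 (2.81, or 2.17 without KO 2), its lower ones Lhx3 and Nkx6-1 (-2.62).

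Neuronal maturation genes differed in both directions between the 2 kinds of neuron. Of 16 pan-neuronal genes, 3 were higher and 7 lower (median -0.33). Syt1, a synaptic vesicle protein, was higher by 2.60, and the axonal genes Gap43 and Nefl were at -2.10 and -2.09. Of 26 tested axon guidance genes, 7 were higher and 8 lower. The ephrin ligand Efnb2 (1.95) and the Slit receptor Robo1 (1.93) were higher, while the repellent Slit2 (-4.84) and the adhesion molecule Cntn2 (-6.28) were lower. The Notch targets Hes1 (2.40) and Hes5 (2.22) were higher, within a Notch list of 4 higher and 4 lower among 18 tested. Of 20 cell cycle genes, 9 were lower (median -0.43), among them Mki67 at -1.26, a call lost without KO 2 (-0.87), after thinning (-1.77) and in the DESeq2 Wald test (-1.19). Of the 2 endothelial genes tested, Cldn5, a tight junction gene, was higher by 4.92. Of the 9 genes of that list, 6 were at 0 in all members and 3, Cldn5 included, were not.

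**Figure D4:**
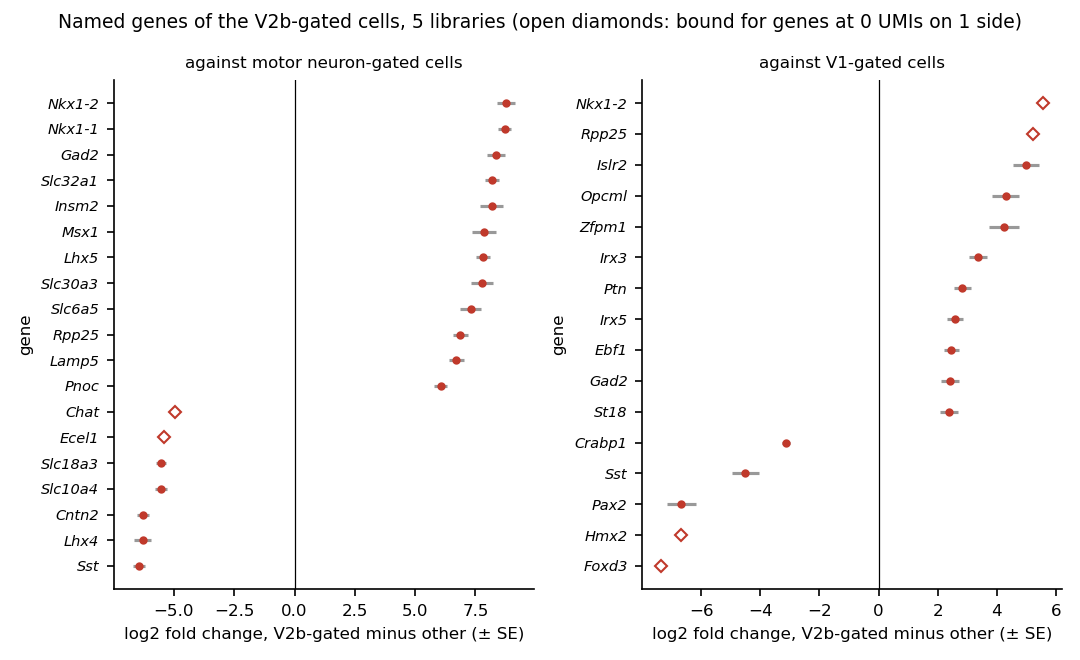
Log2 fold change of genes described in the text (horizontal axis, V2b-gated minus the other set, points with SE) against motor neuron-gated cells (left) and V1-gated cells (right), over 5 libraries. Open diamonds are bounds for genes at 0 UMIs on 1 side, from a floor of 3 UMIs; Nkx1-2 and Nkx1-1 lead the left panel with 8.75 and 8.71.

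V1-gated cells, the other inhibitory class, differed from V2b-gated cells in far fewer genes. Of 3878 genes tested, 73 (1.88%) were higher and 58 (1.50%) lower in V2b-gated cells, in a comparison of 122 against 99 cells. The V1 set has fewer cells per library, and fewer genes passed the count filter. Gad2 was higher in V2b-gated cells by 2.42 ± 0.30 and Slc32a1 by 1.24 ± 0.22, while Slc6a5 did not pass. Slc6a5 stood at 43.6, 137, 73.8, 114 and 89.0 CPM against 48.8, 93.6, 106, 67.3 and 90.0 CPM in V1-gated cells, and the ranges overlapped.

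Several factors separated the 2 inhibitory sets. Nkx1-2 was at 0 in all V1-gated cells and at least 47.4-fold higher in V2b-gated cells, and Rpp25 at least 37.5-fold higher. Zfpm1 was higher by 4.26 (5.66 without KO 2), and the patterning factors Irx3 and Irx5, which mark the ventral progenitor domains from p2 up, by 3.38 and 2.58. The neuronal factors Ebf1 (2.47) and St18 (2.40) were higher too. In the other direction, Foxd3, a V1 factor, was at 0 in V2b-gated cells and at 278 to 762 CPM in V1-gated cells, at least 164-fold lower, and the homeobox gene Hmx2 was at least 102-fold lower. Pax2, a factor of V1 and other inhibitory neurons, was found in 1 member against 55.2% of V1-gated cells, a log2 fold change of -6.67 (-7.66 without KO 2). Lhx1 (-1.44) and Bhlhe22 (-1.97) were lower in V2b-gated cells, so that 3 of the 4 tested factors of the inhibitory interneuron list were lower. The retinoic acid-binding gene Crabp1 stood at -3.13 ± 0.13.

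The adhesion genes Islr2 and Opcml were higher than in V1-gated cells by 5.0 (6.30 without KO 1) and 4.31 (4.92 without DeltaSP 1), and Syt1 by 2.17. Sst was lower at -4.51, with -5.40 without WT 1 and -3.81 without DeltaSP 1. Of 10 tested Hox genes of groups 1 to 5, 1 was higher, and of 3 tested genes of groups 6 to 10 none passed. The difference between this comparison and that with motor neuron-gated cells was not tested. Hoxb6 stood at 493 to 1109 CPM in the V1-gated cells of the same 5 libraries.

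Compared with the other Tubb3-positive cells, the V2b-gated cells were higher in neuronal genes and lower in cell cycle and progenitor genes. Of 10835 genes tested, 1800 (16.6%) were higher and 2138 (19.7%) lower. All 16 pan-neuronal genes were higher (median 1.87), such as Dcx (3.08) and Ina (3.16), and all 20 cell cycle genes lower (median -2.32), such as Cdk1 (-3.03) and Pcna (-1.94). Of 16 tested progenitor genes, 12 were lower, with Sox2 at -2.65 and Nes at -2.29, and 2 higher, Sox1 at 2.69 and Irx3 at 2.53. All 12 tested Hox genes of groups 1 to 5 were higher (median 1.17). Both sets require Tubb3, but 1 also requires 2 further low-abundance transcripts, and depth differed between them within libraries (in WT 1, 3599 against 4086.5 UMIs).

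Between genotypes, the targeted transcript was read first. 5330434G04Rik stood at 87.2 and 91.6 CPM in V2b-gated WT cells, 60.9 and 36.9 CPM in DeltaSP, and 0 in both KO libraries. These are 15 UMIs in WT, 29 in DeltaSP and 0 in KO, at least 15.8-fold below WT with 3 UMIs over both KO libraries as the floor. In motor neuron-gated cells it stood at 48.8 and 50.3 CPM in WT, 34.1 and 40.02 CPM in DeltaSP and 0.115 and 0.371 CPM in KO. The KO labels were thus matched by the transcript in both sets.

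The genotype fit used UMIs summed over the V2b-gated cells of each library, with all 6 libraries in 1 edgeR quasi-likelihood fit and 4612 genes passing the count filter. Between KO and WT, 9 genes (0.195%) were higher and 138 (2.99%) lower. Without cells of high UMI count, 11 of 4397 tested genes were higher in KO and 168 lower. Between DeltaSP and WT, 1 gene (0.0217%) was higher and 3 (0.0650%) lower. Between KO and DeltaSP, 0 genes (0%) passed in edgeR and 0 in the DESeq2 Wald test, with 357 at an unadjusted edgeR p below 0.05. The WT side holds 26 cells, and on simulated data with 4612 genes the KO to WT comparison recovered 13% of 2-fold and 69% of 4-fold changes, so smaller changes were mostly not detectable. The same simulation gave 4 false calls. Apart from the planted changes, the simulated libraries shared the same mean per gene. False calls from shifts over whole libraries, as in ribosomal protein genes, are therefore not in that count. Without KO 1, whose members had the highest surface epithelium and mesoderm sums, 47 genes were higher and 196 lower between KO and WT, and 21 and 36 between DeltaSP and WT. Both comparisons share the WT libraries, and their values are given side by side. With 2 libraries per genotype, separation of the libraries is common. Of all 4612 genes, 41.3% did not overlap between KO and WT, and 39.7% between DeltaSP and WT.

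The transmitter identity of the members did not pass as changed in either edit. Gad2 stood at 240 and 196 CPM in WT, 118 and 201 in DeltaSP, and 303 and 123 in KO, overlapping throughout. Slc32a1 stood at 109 and 222 CPM in WT, 202 and 255 in DeltaSP, and 323 and 254 in KO, with log2 fold changes of 0.62 ± 0.38 for KO and 0.40 ± 0.38 for DeltaSP. Of the 8 GABA and glycine genes 3 were tested, and none passed in either comparison. Lhx5 stood at 87.2 and 157 CPM in WT, 198 and 187 in DeltaSP, and 309 and 222 in KO (0.93 ± 0.38, adjusted p = 0.304 for KO in edgeR). Lhx1 stood at 294 and 275 CPM in WT, 229 and 182 in DeltaSP, and 148 and 105 in KO. For Lhx1 the KO to WT change was -1.42 (adjusted p = 0.0308), a call lost without WT 1, WT 2 or KO 2, after thinning (-1.49), in cells with all 3 factors (-1.27), without cells of high UMI count (-1.20) and with the 2 genotypes alone (-1.35). The neighbouring transcript Lhx1os stood at -2.96 and lost its call without WT 1 (-2.89) or KO 2 (-2.52) and in cells with all 3 factors (-2.56). The gate factors Gata2, Gata3 and Tal1 stood at 249 to 424, 230 to 343 and 258 to 564 CPM over the 6 libraries.

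A few genes were lower in both edits. Cyp26b1, an enzyme that degrades retinoic acid (chromosome 6, 84571414 to 84593908, minus strand), stood at 196 and 419 CPM in WT, 11.4 and 8.51 in DeltaSP, and 13.5 and 5.23 in KO. The WT libraries lay far above the other 4. Its log2 fold change was -5.39 ± 0.57 for KO (edgeR adjusted p = 0.000773) and -4.97 ± 0.53 for DeltaSP (adjusted p = 0.000776). Without WT 2 these were -4.79 and -4.37, and the KO value was -4.56 without KO 2. After thinning to 3000 UMIs Cyp26b1 stood at -5.46 for DeltaSP and no longer passed (edgeR adjusted p = 0.136), while KO still passed. In motor neuron-gated cells Cyp26b1 stood at 55.6 and 26.6 CPM in WT and at 0.371 to 7.70 CPM in the edited libraries.

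Zfhx3, a homeobox factor of later-born spinal neurons (chromosome 8, 107942644 to 108961630, plus strand), stood at 272 and 209 CPM in WT, 45.7 and 19.9 in DeltaSP, and 47.1 and 31.4 in KO. Its log2 fold change was -2.91 ± 0.43 for KO (adjusted p = 0.00266) and -3.04 ± 0.43 for DeltaSP (adjusted p = 0.0105, -2.77 and not passing without WT 1, -3.63 without DeltaSP 1). Both Zfhx3 calls were lost after thinning to 3000 UMIs, at -3.23 and -3.01, and that for DeltaSP also in cells with all 3 factors (-3.36). In motor neuron-gated cells Zfhx3 stood at 144 and 81.2 CPM in WT, 95.5 and 74.0 in DeltaSP, and 95 and 95.8 in KO, which overlap.

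The ephrin receptor gene Epha5 stood at 817 and 615 CPM in WT, 171 and 292 in DeltaSP, and 148 and 133 in KO. It passed for KO at -2.56 ± 0.34 (edgeR adjusted p = 0.00266) and not for DeltaSP at -1.72 ± 0.31 (adjusted p = 0.0653). Epha5 was also lower in the edited motor neuron-gated cells, at 374 and 160 CPM in WT against 29.6 to 107 CPM. The mitochondrial gene mt-Nd3 stood at 458 and 432 CPM in WT and at 60.5 to 130 CPM in the 4 edited libraries. For mt-Nd3 the change was -2.39 for KO (-3.02 without KO 2) and -1.96 for DeltaSP, where the call was lost without WT 1 or DeltaSP 1, after thinning (-1.77) and in cells with all 3 factors (-2.19).

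Meg3, an imprinted long non-coding RNA (chromosome 12, 109541001 to 109571726, plus strand), was the gene that was higher in both edits. It stood at 229 and 52.3 CPM in WT, 1352 and 1260 in DeltaSP, and 572 and 939 in KO. Its log2 fold change was 3.04 ± 0.45 for DeltaSP (edgeR adjusted p = 0.0120), with 4.58 without WT 1 and 2.39 without WT 2. The DeltaSP call was lost in cells with all 3 factors (2.94) and after thinning (2.70). For KO it was 2.19 ± 0.46 (adjusted p = 0.0136), with 3.72 without WT 1, and the call was lost without WT 2 (1.53) or KO 2 (1.81). In motor neuron-gated cells Meg3 stood at 1184 and 1478 CPM in WT, 2373 and 1956 in DeltaSP, and 1305 and 1234 in KO. The other KO rises named by the rule were less stable. The glycolytic genes Ldha (3.53) and Aldoa (1.90) lost their call without WT 1, WT 2 or KO 2, with Ldha at 1.68 and Aldoa at 1.16 in the last case. Phlda1, a p53 and stress-responsive gene, rose by 2.38 but stood at 1.75 without passing when WT 1 was left out, and at 3.34 without WT 2.

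**Figure D5:**
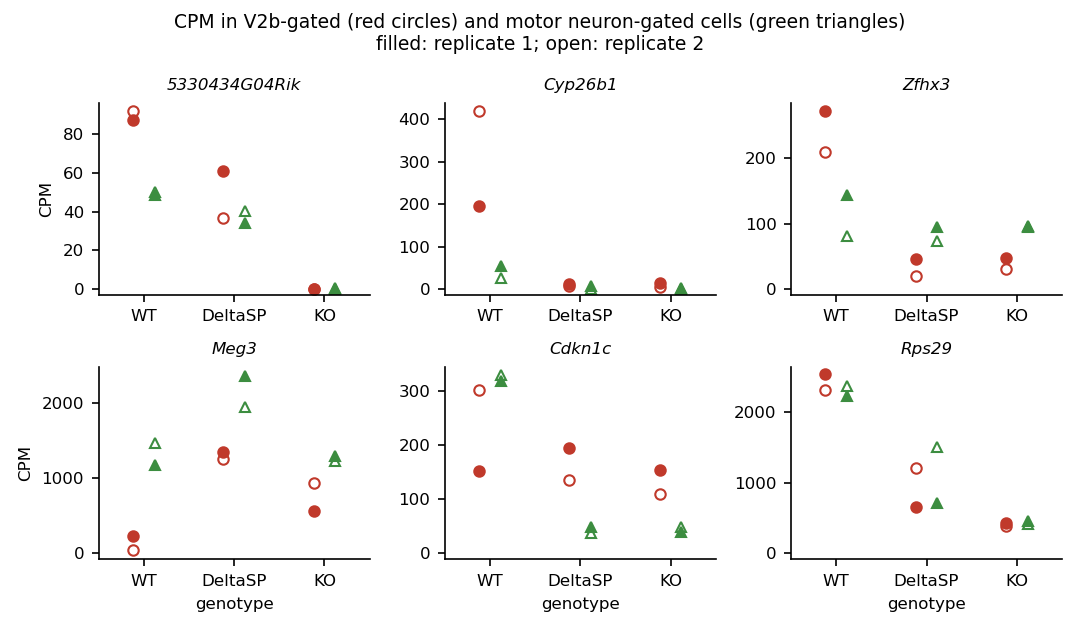
CPM (vertical axis) of 6 genes in V2b-gated (red circles) and motor neuron-gated cells (green triangles) by genotype (horizontal axis), with 1 symbol per library, filled for replicate 1 and open for replicate 2. Zfhx3 separates WT from both edits in V2b-gated cells and not in motor neuron-gated cells, Cdkn1c shows the reverse, and Rps29 is lower in the edited libraries in both sets.

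The 138 genes lower in KO were short on the whole and rich in ribosomal protein genes. Their median transcript length was 987 bases against 3086 over all tested genes, and 33 of them (23.9%) encoded ribosomal proteins against 1.65% of the tested genes. All 7 genes of a list of short ribosomal proteins were lower in KO, with a median log2 fold change of -2.26 against 0.04 for all genes. Rps29 stood at 2528 and 2303 CPM in WT, 655 and 1200 in DeltaSP, and 437 and 382 in KO (-2.75 ± 0.34). The share of UMIs on ribosomal protein genes stood in V2b-gated WT cells at 15.6% and 13.1%, in DeltaSP at 8.75% and 12.4%, and in KO at 9.05% and 8.12%, and in motor neuron-gated cells 15.5%, 12.1%, 10.2%, 13.6%, 9.29% and 8.46%. Of the 138 genes, 136 were also lower in KO motor neuron-gated cells (median log2 ratio -1.34), and none passed the test of a difference between the 2 sets, with 12 at an unadjusted p below 0.05. The share of all tested genes that were lower in KO motor neuron-gated cells was not counted, so the 136 have no base share beside them. In other Tubb3-positive cells the short ribosomal list summed to 17867 and 24456 CPM in WT, 7909 and 16339 in DeltaSP, and 6025 and 6032 in KO. The part of library chemistry or RNA quality in these falls was not tested. The labels name the 10x 3' kit as V3 in 1 place and V3.1 in another. The mitochondrial share of UMIs, at 3.43% to 5.02%, did not separate the genotypes. Cox7b, a cytochrome oxidase subunit on chromosome X (106015700 to 106022450, plus strand), was among the falls at -1.89 ± 0.30 (edgeR adjusted p = 0.00287), and stood at 643 and 536 CPM in WT, 229 and 321 in DeltaSP, and 175 and 186 in KO.

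Whether an edit acted differently in V2b-gated and motor neuron-gated cells was tested with an interaction of cell set and genotype over the 5 libraries with 10 or more members, which leaves WT 1 alone on the WT side. The spread then comes from the edited libraries, and WT 1 is assumed to vary like them. Of 10107 genes, 12 (0.119%) passed for KO against WT and 21 (0.208%) for DeltaSP against WT, and the median over all genes was 0.23 and 0.24. Since WT 1 was the shallow library, each gene named here was read again with all 6 libraries.

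Cdkn1c, an imprinted cell cycle inhibitor, passed for both edits. In motor neuron-gated cells it stood at 318 and 330 CPM in WT, 48.2 and 38.1 in DeltaSP, and 38.96 and 48.2 in KO. In V2b-gated cells it stood at 153 and 301 CPM in WT, 194 and 136 in DeltaSP, and 155 and 110 in KO, and the V2b values of WT and DeltaSP overlapped. The interaction was 2.68 for KO (edgeR adjusted p = 0.005) and 3.14 for DeltaSP (adjusted p = 0.000204), and 2.18 and 2.62 with all 6 libraries. Thinned to 3000 UMIs, the KO call was lost (2.20, adjusted p = 0.332 in edgeR). Cdkn1c within V2b-gated cells did not pass for KO (-0.99) or DeltaSP (-0.55), although the KO value passed in cells with all 3 factors (-1.60).

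Meg3, Hoxb6 and Onecut2 differed between the sets for both edits. The Meg3 interaction was 1.83 for KO and 1.80 for DeltaSP, and 2.61 and 2.58 with all 6 libraries. For Hoxb6 it was 1.88 and 1.74, and 1.26 and 1.11 with all 6. Onecut2 gave 1.46 and 1.60, and 1.11 and 1.23 with all 6; it stood at 305 and 628 CPM in V2b-gated WT cells and at 633 to 968 in the edited ones, against 152 to 229 CPM in motor neuron-gated cells of all 6 libraries. Thinned to 3000 UMIs, the Onecut2 call for KO was lost (1.53) and that for DeltaSP stayed (1.64).

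Ptn and Zfhx3 passed the interaction test for 1 edit each over the 5 libraries, and for both edits with all 6. The growth factor gene Ptn stood at 196 and 65.4 CPM in V2b-gated WT cells, 682 and 559 in DeltaSP, and 316 and 696 in KO, while motor neuron-gated cells held 209 and 345 CPM in WT and 25.1 to 117 CPM in the edited libraries. The Ptn interaction for KO was 3.83 (adjusted p = 0.0178), with 5.09 without KO 1, 2.09 without KO 2 and 4.72 with all 6 libraries. For DeltaSP it was 2.97 without passing (adjusted p = 0.109), and 3.85 and passing with all 6. The Zfhx3 interaction was called for DeltaSP at -2.20, a call lost without DeltaSP 2 (-1.79) and after thinning (-2.38), and at -2.37 with all 6 libraries. For KO it was -2.19 without passing (adjusted p = 0.0553), and -2.34 and passing with all 6.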

How the data were processed

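The authors deposited raw UMI counts per gene and barcode for 6 libraries (2 WT, 2 DeltaSP, 2 KO), aligned and counted with Cell Ranger 4.0 on mm10 with Ensembl release 93, per the submitters' processing notes. No normalization had been applied to the deposited counts. Cells were kept with 1000 or more genes and at most 10% mitochondrial UMIs; no doublet caller was run, and fits without cells over 2 times their library's median UMI count were made as an alternative.

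Members and comparison sets were taken by detected genes, UMIs were summed per library and set, and the sums went into edgeR 4.0.16 under R 4.3.3, with TMM scaling, its filter by expression and its quasi-likelihood test; p-values were adjusted after Benjamini and Hochberg over all tested genes, at 0.05. Genes of either gate were left out of calls between cell sets. CPM are plain, scaled by all UMIs of the summed cells; log2 fold changes are TMM-scaled. Shares were compared by two-sided exact permutation over libraries. Intervals (exact binomial, 95%) and floors (3 UMIs) cover counting error only. Replicates are clones, and p-values measure the spread between libraries, which may be partly technical. Alternatives included the DESeq2 1.42.0 size factors and Wald test, no count filter, all 3 factors, thinning to 3000 UMIs and leaving out each library. The fits were tested on simulated data. Recovery of 2-fold and 4-fold changes was 64% and 92% against motor neuron-gated cells and 81% and 99% against V1-gated cells. False calls numbered 15 and 11. The simulated libraries had no shifts of their own, so false calls from such shifts are not counted.

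The members and gene lists were chosen with earlier results of these data known. By rule, the text names up to 12 of the largest rises and falls per cell-set comparison, and up to 8 per genotype comparison, among passing genes at 50 CPM or more that move the same way in every library (for genotypes, with no overlap), the 5 smallest p where fewer than 5 pass, list members and the targeted transcript; some of these are not reported here. Ptn and other genes of the interaction test outside this rule were named after their values were seen. Gene positions are from GENCODE M21 and promoters from RefSeq, both on GRCm38.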

Additional observations from a re-analysis of the deposited data

Results flagged for a closer look

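Genes whose change between genotypes differed between V2b-gated and motor neuron-gated cells drew attention by the interaction test, in which WT 1 alone stands for WT; values are log2 interactions, positive where V2b-gated cells moved up relative to motor neuron-gated cells. For KO against WT these were Ptn (3.83), Cdkn1c (2.68), Hoxb6 (1.88), Meg3 (1.83) and Onecut2 (1.46). For DeltaSP against WT these were Cdkn1c (3.14), Meg3 (1.80), Hoxb6 (1.74), Onecut2 (1.60) and Zfhx3 (-2.20). With all 6 libraries, an alternative added after the data were seen, these 10 values ran from -2.37 (Zfhx3) to 4.72 (Ptn) and kept their sign and their call. Thinned to 3000 UMIs, 3 of the calls were lost: Cdkn1c (2.20) and Onecut2 (1.53) for KO, and Zfhx3 (-2.38) for DeltaSP. Beyond this thinning, the part of depth, ribosomal UMI share and clone in these differences was not tested.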

How the results depend on the processing

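For KO against WT (147 genes), requiring all 3 factors gave 97, and leaving out 1 library gave 45 (without KO 2) to 243 (without KO 1). For DeltaSP against WT (4 genes), no count filter gave 35, DESeq2 19, thinning 1, all 3 factors 0, and leaving out 1 library 2 to 57. For KO against DeltaSP (0 genes), no count filter gave 43, and leaving out 1 library 0 to 47. Replicate numbers did not pair the libraries (correlations of -0.085, -0.023 and -0.076), and the replicate block gave 107, 2 and 0 genes, without the calls of Lhx1 for KO (adjusted p = 0.0624) and of Meg3 (0.0879) and mt-Nd3 (0.0915) for DeltaSP. Against motor neuron-gated cells (1486 genes), the fit with no replicate block gave 850 (492 higher, 358 lower), thinning 800 (300 higher, 500 lower), and leaving out 1 library 1023 to 1780. Against V1-gated cells (131 genes), no count filter gave 294, DESeq2 57, no replicate block 51, thinning 25 (10 higher, 15 lower), leaving out cells of high UMI count 205, and leaving out 1 library 101 to 157, with more lower than higher calls without KO 1 (52 and 61) or KO 2 (57 and 68). Against other Tubb3-positive cells (3938 genes), thinning gave 2076 and leaving out 1 library 2882 to 4658. The interaction gave 29 genes for KO and 49 for DeltaSP with all 6 libraries, and 20 to 32 and 33 to 69 with 1 library left out.

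The share difference of KO and DeltaSP changed sign without the exclusion of Isl1 and Mnx1 (-0.047 points), per V1-gated cell (-0.680) and without KO 2 (-0.332 to 0.391 over the libraries left out). KO exceeded WT by 0.269 to 0.992 points and DeltaSP exceeded WT by 0.523 to 0.679 points with 1 library left out. Detection after thinning was 33.6% for Gad2 and 44.5% for Slc32a1. The cause of these moves was not tested; fewer cells and UMIs enter the thinned fits by construction.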
